A study of Drosophila melanogaster with 16 samples.

Results

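The metallothioneins MtnA, MtnB, MtnC and MtnD were followed through the 4 groups of flies of this series. Each gene was represented by the probe set, the group of short oligonucleotides on the array that reads a transcript, annotated to that gene alone, which gave 4 probe sets of the 18952 on the array and 4 genes of the 11981 with a probe set of 1 symbol. The RefSeq annotation lists 6 metallothionein genes. MtnE and MtnF had no probe set of 1 gene among those analysed and were not analysed here. Transcripts were measured in 16 single whole flies, 4 in each group, on Affymetrix Drosophila Genome 2.0 arrays. The *dmDys* flies, a *Drosophila* model of Duchenne muscular dystrophy, carried the UASdmDysC-term construct, which drives RNA interference against dystrophin, with P-tub-Gal4, a driver active in all tissues. The methods name the P-tub-Gal4 driver line as the control for gene expression, and the labels call the control flies wild type (WT). All flies were adults labelled 3 to 5 days old and were kept for 2 weeks under their condition. CH-*dmDys* flies were exposed to chronic hypoxia (CH) at low air pressure during a 16-day ascent of a mountain, CH-WT flies were labelled as exposed to CH at normal pressure in the laboratory, and normoxic *dmDys* and normoxic WT flies breathed room air. On these arrays the mountain and the laboratory exposure were each used in 1 genotype, so the genotype and the kind of CH cannot be told apart where the CH responses are set against each other. The paper also gave *dmDys* flies laboratory CH and measured selected genes in them by qPCR, with no metallothionein among the genes it lists.

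Metallothioneins are small proteins rich in cysteine, whose thiol groups bind copper, zinc, cadmium and other metal ions. In *Drosophila* their transcription is switched on by the metal-responsive transcription factor MTF-1 when metal is in excess, with strong expression in the gut. MtnA is best known for protection against copper and MtnB for protection against cadmium, while MtnC and MtnD have been assigned smaller roles. The 4 genes lie on chromosome arm 3R, with MtnB, MtnC and MtnD close together: in the RefSeq order MtnC is separated from MtnB by 5 protein-coding genes, MtnB from MtnE by 2, and MtnE and MtnD are next to each other. MtnA stands apart, with 1256 protein-coding genes between it and MtnC.

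The values are GCRMA intensity, analysed on the log2 scale, on which a difference of 1 is a 2-fold change. The lowest log2 value was 2.06 on the *dmDys* arrays and 1.95 on the WT arrays, and the upper quartile lay between 10.18 and 10.28 on the first and between 8.99 and 9.09 on the second. Levels of the 2 genotypes therefore differ in scale as deposited. The main tests on the deposited values used differences within a genotype, and a test between the genotypes on them is given only as an alternative. The log2 difference between 3' and 5' probe sets of 3 control transcripts, which is larger where less of a transcript's length was preserved or copied, ranged from 2.95 to 4.09 in CH-*dmDys*, from 5.76 to 10.34 in normoxic *dmDys*, from 4.51 to 6.78 in CH-WT and from 6.97 to 7.34 in normoxic WT flies. Dys, the dystrophin gene, gave at its brightest probe set a log2 mean with CH of 8.61 ± 0.38 (SD, n = 4) for *dmDys* and 8.52 ± 0.54 (SD, n = 4) for WT flies, and in room air of 7.50 ± 1.56 (SD, n = 4) for *dmDys* and 8.39 ± 0.97 (SD, n = 4) for WT flies. After quantile normalization of all arrays, the scale used to compare the genotypes, its means in room air were 7.09 in *dmDys* and 8.89 in WT flies, a log2 difference of -1.80, and it was not called (limma, Benjamini-Hochberg adjusted p = 0.239), so the arrays do not check the genotype labels firmly. In whole flies, a lower number of cells that express a gene and less RNA per cell cannot be told apart.

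MtnC and MtnD were lower in CH-*dmDys* than in normoxic *dmDys* flies, by 2.82 and 3.57 times, and the flies of the groups did not overlap. MtnB was lower in 3 of the 4 CH-*dmDys* flies but not in the remaining fly, and MtnA had almost the same level in both groups. In WT flies the means of all 4 genes lay on the other side, higher after CH, and none of these differences passed the test. The MtnC response differed between the genotypes by the test of the difference itself.

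MtnC, of the cluster on 3R, gave log2 levels of 12.65, 13.30, 13.02 and 14.18 in CH-*dmDys* replicates 5, 6, 7 and 8. In normoxic *dmDys* replicates 6, 7, 8 and 10 they were 14.94, 14.85, 14.54 and 14.81. All 4 flies exposed to CH lay below all 4 normoxic flies, and CH-*dmDys* replicate 8 came closest to them. The means were 13.29 ± 0.65 (SD, n = 4) and 14.79 ± 0.17 (SD, n = 4). MtnC thus fell by 1.50 log2 units with CH (standard error, SE, of 0.33, 95% interval -2.29 to -0.70), which passed the test (limma, Benjamini-Hochberg adjusted p = 0.0245).

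MtnD, the neighbour of MtnE on the chromosome, gave log2 levels of 10.73, 9.92, 9.95 and 11.73 in CH-*dmDys* replicates 5 to 8. In normoxic *dmDys* replicates 6, 7, 8 and 10 they were 12.59, 12.26, 12.17 and 12.66. The groups again did not overlap, with CH-*dmDys* replicate 8 the highest of its group. MtnD fell by 1.84 log2 units with CH (SE 0.43, 95% interval -2.88 to -0.80, limma, Benjamini-Hochberg adjusted p = 0.0303), from a mean of 12.42 ± 0.24 (SD, n = 4) to 10.58 ± 0.85 (SD, n = 4).

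MtnB, the gene known for cadmium, gave log2 levels of 6.01, 5.08, 5.67 and 9.56 in CH-*dmDys* replicates 5 to 8. In normoxic *dmDys* replicates 6, 7, 8 and 10 they were 7.97, 7.96, 8.85 and 8.30. Replicates 5, 6 and 7 of CH-*dmDys* lay below every normoxic fly and replicate 8 lay above every one. The mean log2 difference was -1.69 (SE 1.01, 95% interval -4.12 to 0.74), and MtnB was not called with all flies (limma, Benjamini-Hochberg adjusted p = 0.342). Without CH-*dmDys* replicate 8 the difference was -2.68 and was called (adjusted p = 0.012).

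MtnA, the gene known for copper, gave log2 levels of 15.17, 15.08, 15.12 and 15.04 in CH-*dmDys* replicates 5 to 8. In normoxic *dmDys* replicates 6, 7, 8 and 10 they were 15.19, 15.20, 15.14 and 15.13. The groups overlapped, and all 8 values lay within 1 unit of the brightest probe sets of these arrays, between 15.89 and 15.96. The log2 difference was -0.06 (SE 0.03, 95% interval -0.14 to 0.02, limma, Benjamini-Hochberg adjusted p = 0.294). Whether the array could still register a change at this brightness was not tested.

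**Figure D1:**
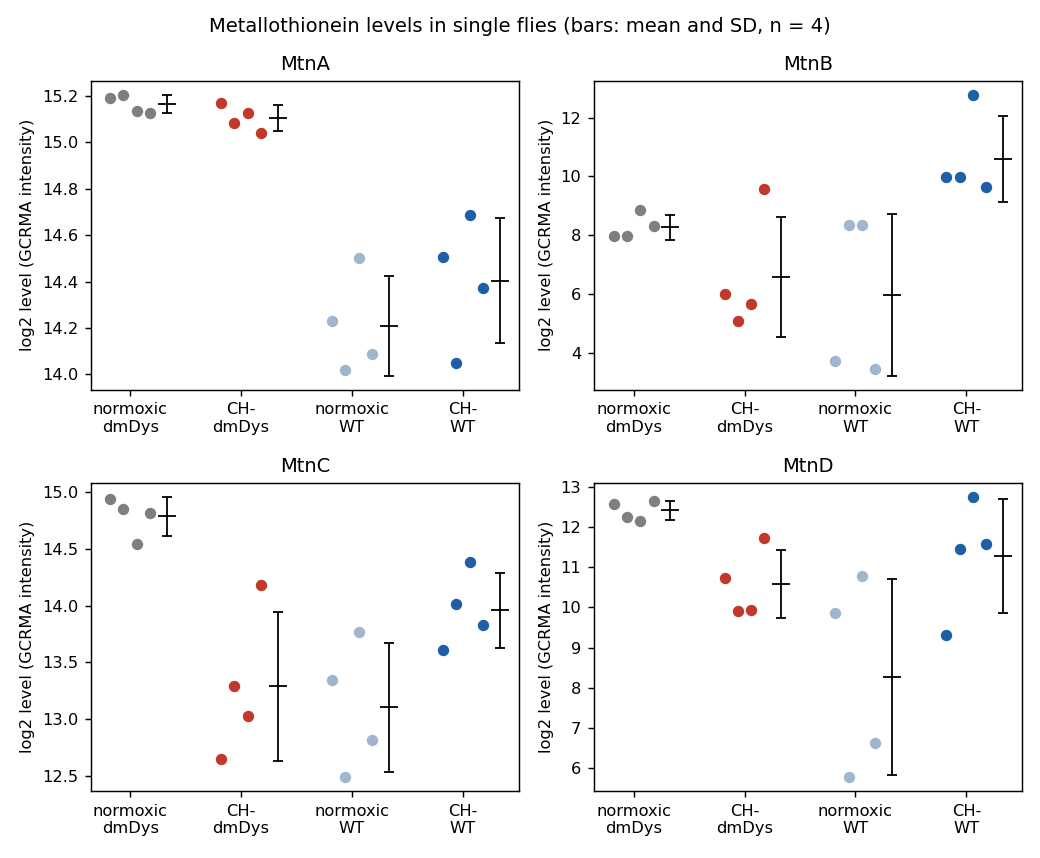
Log2 GCRMA intensity (vertical axis) of MtnA, MtnB, MtnC and MtnD in single flies of the 4 groups, each point 1 fly in the order of its replicate number, with the group mean and SD (n = 4) beside it. The vertical scale differs between panels and the *dmDys* and WT arrays differ in scale. CH-*dmDys* flies lie below normoxic *dmDys* flies in MtnC and MtnD, and CH-WT flies lie above normoxic WT flies in MtnB.

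A probe set was called when its adjusted p from limma was under 0.05 and its log2 difference at least 1 in size. In CH-*dmDys* against normoxic *dmDys* flies 2 of the 4 metallothioneins were called, both lower, against 9.53% of the 18907 probe sets tested in either direction and 4.07% called lower. Among the probe sets brighter than the median, 16.8% were called. In 2 of the 4 genes the groups did not overlap, against 29.1% of all probe sets, and 15.2% in the lower direction, so that this count alone is near the background. The median log2 difference of the 4 genes was -1.59, and that of all probe sets was -1e-04. For MtnC and for MtnD the two-sided exact permutation p was 0.0286, the smallest that 4 flies against 4 allow, while it was 0.143 for MtnB and 0.114 for MtnA.

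The calls of MtnC and MtnD rest on few flies. Neither gene was called when replicate 6 or 7 of CH-*dmDys*, or replicate 6, 7 or 10 of normoxic *dmDys*, was left out, and MtnD was also not called without CH-*dmDys* replicate 5. With each fly left out in turn, the log2 difference of MtnC ranged from -1.80 to -1.28 (adjusted p from 0.0082 to 0.0711) and that of MtnD from -2.22 to -1.62 (adjusted p from 0.0111 to 0.08). The 3' minus 5' difference of the control transcripts moved with CH in these flies, with groups that did not overlap, and with it as a covariate the log2 difference was -1.39 for MtnC and -1.56 for MtnD and neither was called (adjusted p = 0.796 and 0.894, with 29 probe sets called in all). SAM, the test named in the methods, was written anew here, and called 467 probe sets and 0 metallothioneins. These are fewer probe sets than the genes the paper reports for this comparison, so the count does not stand for the authors' own result.

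CH-WT flies were compared with normoxic WT flies by the same test. MtnB had the largest difference of the family: its log2 levels were 9.98, 9.97, 12.76 and 9.65 in CH-WT replicates 3, 5, 6 and 7. In normoxic WT replicates 2, 3, 5 and 6 they were 3.74, 8.33, 8.36 and 3.46. Every CH-WT fly lay above every normoxic WT fly, and the normoxic flies were split between a pair near 8 and a pair below 4, with nothing between. The means were 10.59 ± 1.45 (SD, n = 4) and 5.97 ± 2.74 (SD, n = 4), a log2 difference of 4.62 (SE 1.51, 95% interval 0.99 to 8.25), or 24.6 times. Only 0.0476% of probe sets had a larger difference in size. The pair of normoxic WT flies below 4, replicates 2 and 6, lay near the median of all probe sets on their arrays, 3.53 and 3.56. The size of the difference thus depends on values with little signal. The unadjusted p from limma was 0.0203 and the Benjamini-Hochberg adjusted p was 0.9996, so that MtnB was not called.

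MtnD gave log2 levels of 9.33, 11.46, 12.76 and 11.58 in CH-WT replicates 3, 5, 6 and 7. In normoxic WT replicates 2, 3, 5 and 6 they were 9.85, 5.76, 10.79 and 6.62. Of the CH-WT flies 3 lay above all normoxic flies, and replicate 3 lay below 2 of them. The log2 difference was 3.02 (SE 1.37, 95% interval -0.28 to 6.33, limma unadjusted p = 0.0669, Benjamini-Hochberg adjusted p = 0.9996).

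MtnC gave log2 levels of 13.61, 14.01, 14.39 and 13.83 in CH-WT replicates 3, 5, 6 and 7. In normoxic WT replicates 2, 3, 5 and 6 they were 13.35, 12.49, 13.77 and 12.82. The groups overlapped only in that CH-WT replicate 3 lay below normoxic WT replicate 5. The log2 difference was 0.86 (SE 0.32, 95% interval 0.09 to 1.62, limma unadjusted p = 0.0335, Benjamini-Hochberg adjusted p = 0.9996).

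MtnA gave log2 levels of 14.50, 14.05, 14.69 and 14.37 in CH-WT replicates 3, 5, 6 and 7. In normoxic WT replicates 2, 3, 5 and 6 they were 14.23, 14.02, 14.50 and 14.09. The groups overlapped widely, and the log2 difference was 0.20 (SE 0.17, 95% interval -0.21 to 0.60, limma, Benjamini-Hochberg adjusted p = 0.9996).

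In CH-WT against normoxic WT flies, limma called 0 of the 4 metallothioneins and 0% of all probe sets. SAM called 0 metallothioneins and 9 probe sets in all. At an unadjusted p under 0.05, 2 of the 4 genes (MtnB and MtnC) passed, against 1.23% of all probe sets (232 of 18907). The groups did not overlap in 1 of the 4 genes, against 0.873% of all probe sets and 0.476% in the higher direction. The median log2 difference of the 4 genes was 1.94, and that of all probe sets was -0.0019. The two-sided exact permutation p was 0.0286 for MtnB, the smallest possible, 0.0571 for MtnC, 0.0857 for MtnD and 0.286 for MtnA.

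CH-WT replicate 7 and normoxic WT replicate 5 stood apart from the other WT flies in transcripts of the testis. The summed intensity of 8 testis genes was 39.3 in CH-WT replicate 7 and 51.9 in normoxic WT replicate 5. In the other WT flies it lay between 111213 and 131945 with CH and between 131653 and 134496 without. In *dmDys* flies it lay between 174146 and 183518 with CH and between 189163 and 201097 without, with no overlap. There 0 of the 8 genes were called with CH, against 9.53% of all probe sets. Of the 8 genes, 5 had an unadjusted p under 0.05 from limma, all lower, against 32% of all probe sets in either direction. Normoxic WT replicate 5 was also the highest of its group in 4 of the 4 metallothioneins. Without these 2 flies the log2 difference between CH-WT and normoxic WT was 5.73 for MtnB, 3.77 for MtnD, 1.12 for MtnC and 0.30 for MtnA, larger than with them in each gene, and none was called (limma, Benjamini-Hochberg adjusted p = 0.911). The strain of CH-WT replicate 3 is given as *dmDys* in its labels although its title names the wild type, and its lowest log2 value, 1.95, was that of the other WT arrays. Without it the WT differences were 4.82 for MtnB, 3.68 for MtnD, 0.97 for MtnC and 0.16 for MtnA (limma, Benjamini-Hochberg adjusted p = 0.99), and MtnC was still called for the difference between the CH responses (-2.47, adjusted p = 0.044).

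The difference between the CH responses, that of *dmDys* minus that of WT, was tested as an interaction over all 16 flies. For MtnC it was -2.35 on the log2 scale (SE 0.46, 95% interval -3.36 to -1.35), and it was called (limma, Benjamini-Hochberg adjusted p = 0.0317). For MtnB it was -6.31 (SE 1.84, adjusted p = 0.187), for MtnD -4.86 (SE 1.46, adjusted p = 0.203) and for MtnA -0.26 (SE 0.17, adjusted p = 0.931), and none of these was called. In all, 1 of the 4 genes was called, against 0.894% of all probe sets and 0.439% in that direction, and 3 of the 4 had an unadjusted p under 0.05, against 8.13%. The median over the 4 genes was -3.61, and that over all probe sets was 0.0017. The call of MtnC did not hold (adjusted p up to 0.0761) when any 1 of these flies was left out: replicates 5, 6 and 7 of CH-*dmDys*, 6, 7 and 10 of normoxic *dmDys*, 5 and 6 of CH-WT, and 2, 3 and 6 of normoxic WT. When replicate 7 of CH-WT and replicate 5 of normoxic WT were left out together, MtnC (-2.62, adjusted p = 0.0127) and MtnD (-5.61, adjusted p = 0.0494) were called.

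**Figure D2:**
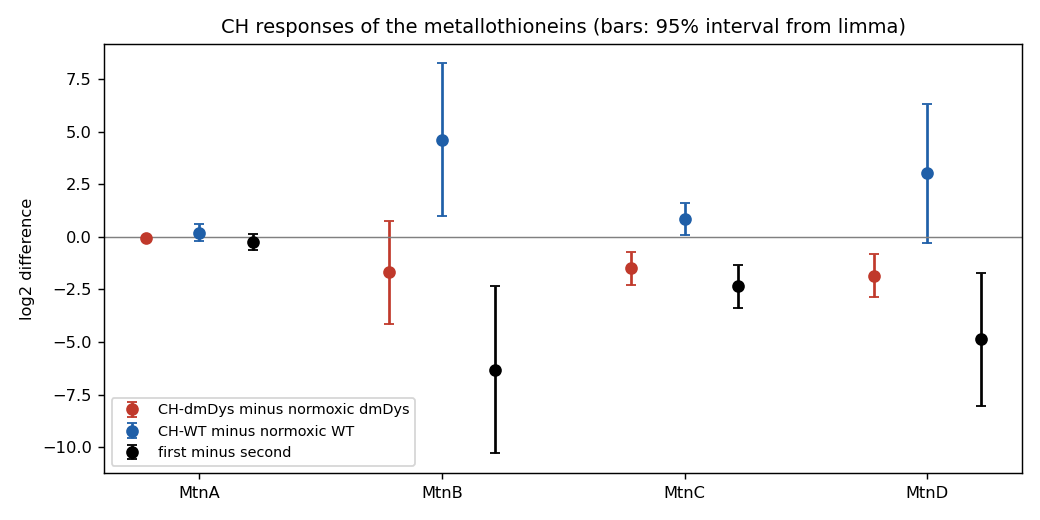
Log2 difference (vertical axis) of each metallothionein between CH-*dmDys* and normoxic *dmDys* flies, between the same conditions of WT flies, and the first minus the second, with the 95% interval from limma (n = 4 flies per group). The points of MtnB, MtnC and MtnD lie below 0 in *dmDys* and above 0 in WT flies. The intervals include 0 for MtnA throughout, for MtnB in *dmDys* flies and for MtnD in WT flies.

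Normoxic *dmDys* and normoxic WT flies were compared after quantile normalization of all arrays, since the deposited scales differ. On these values the log2 mean of MtnC was 14.51 ± 0.20 (SD, n = 4) for the *dmDys* and 13.49 ± 0.53 (SD, n = 4) for the WT flies. It was higher in *dmDys* by 1.02 (SE 0.27, 95% interval 0.36 to 1.69, limma, Benjamini-Hochberg adjusted p = 0.0492). MtnD, at 11.96 ± 0.27 (SD, n = 4) and 8.67 ± 2.62 (SD, n = 4), had a difference of 3.29 (SE 1.28, adjusted p = 0.141), and MtnB a difference of 1.52 (SE 1.51, adjusted p = 0.544). MtnA had a difference of 0.39 (SE 0.09) that passed the p threshold (adjusted p = 0.0264) but not the 2-fold threshold. Of the 4 genes 1 was called, against 8.07% of all probe sets and 3.23% in the higher direction. In 3 (MtnA, MtnC and MtnD) the groups did not overlap, against 54.9% of all probe sets and 12.1% in the higher direction.

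The genotype comparison depends on the scale and on single flies. On the deposited values the log2 difference was 0.95 for MtnA, 2.30 for MtnB, 1.68 for MtnC and 4.16 for MtnD, and MtnC and MtnD were called. With each array centred on its median, none was called, at an adjusted p of 0.0592 for MtnC. The call of MtnC was lost without any 1 of the 4 normoxic *dmDys* flies or without normoxic WT replicate 2, 3 or 6 (adjusted p up to 0.128). Without normoxic WT replicate 5 both MtnC (1.23, adjusted p = 0.0077) and MtnD (4.18, adjusted p = 0.0286) were called.

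The order of the group means depends in part on the scale. On the deposited log2 values MtnC and MtnD had the order normoxic *dmDys*, CH-WT, CH-*dmDys*, normoxic WT. After quantile normalization MtnD kept this order, with overlap between the flies of each pair of neighbouring groups on both scales. MtnC then ran from 14.51 in normoxic *dmDys* over 14.27 in CH-WT and 13.49 in normoxic WT to 12.83 in CH-*dmDys* flies, so that CH-*dmDys* was lowest, and the range of normoxic *dmDys*, which stood clear of CH-WT on the deposited values, overlapped it. MtnB had CH-WT first and normoxic *dmDys* next on both scales, without overlap between them, and the lower places turned: CH-*dmDys* lay above normoxic WT as deposited, and normoxic WT (6.29) above CH-*dmDys* (6.17) after quantile normalization. MtnA had both *dmDys* means above both WT means on both scales, but CH-*dmDys* and CH-WT flies overlapped after quantile normalization.

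The metallothioneins varied unequally from fly to fly. In CH-*dmDys* the SD of MtnB, 2.03 on the log2 scale, was larger than that of 99.6% of probe sets, that of MtnD (0.85) larger than 98.1% and that of MtnC (0.65) larger than 96.6%, whereas the SD of MtnA (0.06) was larger than 46.8%. In normoxic *dmDys* flies the SD was 0.42 for MtnB, 0.24 for MtnD and 0.17 for MtnC. The highest and the lowest normoxic WT fly differed by 29.9 times in MtnB and by 32.7 times in MtnD. A high level was often shared between genes of a fly: CH-WT replicate 6 was the highest of its group in 4 of the 4 genes, and CH-*dmDys* replicate 8 in 3 of the 4, with MtnA as the exception, where it was the lowest. Among normoxic WT flies replicate 5 was the highest and replicate 6 was low in both MtnB and MtnD, whereas replicate 3 was high in MtnB (8.33) and low in MtnD (5.76), and replicate 2 low in MtnB (3.74) and high in MtnD (9.85).

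**Figure D3:**
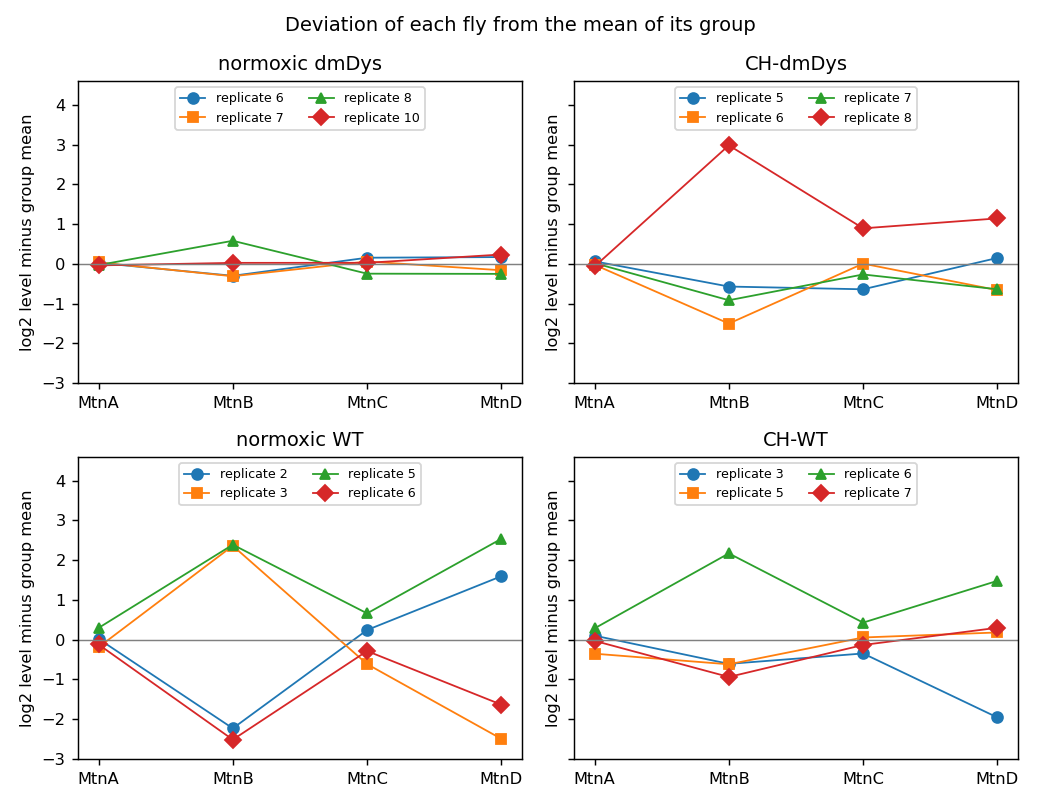
Log2 level of each fly minus the mean of its group (vertical axis) for the 4 metallothioneins, 1 panel per group and 1 line per fly. CH-*dmDys* replicate 8 and CH-WT replicate 6 lie above their group means in MtnB, MtnC and MtnD, and the normoxic *dmDys* flies lie close together.

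As a description over the 16 flies, with the mean of each genotype subtracted, the levels of MtnC and MtnD had a Pearson correlation of 0.818, MtnB and MtnD of 0.641, MtnB and MtnC of 0.631, MtnA and MtnD of 0.61, MtnA and MtnB of 0.48 and MtnA and MtnC of 0.428. These values share the groups, so that differences with CH enter them. Among 6682 probe sets of 1 gene with an SD of at least 0.5 on these values, MtnC was the gene most like MtnD. The genes most like MtnC were tra, the sex determination gene transformer (0.897), the heat shock genes Hsp26 (0.852) and Hsp68 (0.839), lncRNA:alphagamma-element:CR32865 (0.834), an RNA of a heat shock locus, and CG32407 (0.831). After MtnC, those most like MtnD were Irk1, an inward rectifier potassium channel (0.815), Drsl5, of the drosomycin family (0.799), Sobp (0.797) and CG44251 (0.781). MtnB was most like AOX1, an aldehyde oxidase (0.769), CG31288 (0.756), CG4363 (0.748), the pyruvate dehydrogenase kinase gene Pdk (0.743) and smp-30 (0.724). MtnA was most like CG44251 (0.863), CG18095 (0.836), hoka, of the septate junctions of the gut (0.819), CG13321 (0.805) and CG10477 (0.788).

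Other genes that handle metals changed in both directions in *dmDys* flies. Of 41 such genes measured, 2 were called higher and 4 lower in CH-*dmDys*, against 5.46% and 4.07% of all probe sets, and 19 had an unadjusted p under 0.05, against 32% of all probe sets. Their log2 differences ranged from -3.93 to 2.68 with a median of 0.11, against a median of -1.59 for the metallothioneins, and the medians of the lists ran from -0.36 for copper to 0.45 for iron. In WT flies limma called 0 of the 41, against 0% of all probe sets, and 3 had an unadjusted p under 0.05, against 1.23%. Their median difference was 0.09, against 1.94 for the metallothioneins. For the difference between the CH responses 1 of the 41 was called, against 0.894% of all probe sets.

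MTF-1, the regulator of metallothionein transcription, averaged 9.23 ± 0.20 (SD, n = 4) on the log2 scale with CH and 8.59 ± 0.30 (SD, n = 4) without it in *dmDys* flies. Its difference of 0.64 (SE 0.18, limma, Benjamini-Hochberg adjusted p = 0.0499) was below the 2-fold threshold and was not called, and its sign was opposite to that of MtnC and MtnD. Over 19 alternatives the difference of MTF-1 ranged from 0.07 to 0.75. With each fly left out in turn its adjusted p from limma ranged from 0.0263 to 0.1273. In WT flies the means were 7.63 ± 0.89 (SD, n = 4) with CH and 7.50 ± 1.14 (SD, n = 4) without.

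Of 8 measured genes of copper uptake, delivery and export, 0 were higher and 2 lower in CH-*dmDys* flies, both of them copper importers of the cell membrane. Ctr1B, which MTF-1 activates when copper is scarce, fell by 1.03 log2 units (SE 0.25, adjusted p = 0.036 from limma), from 6.99 ± 0.36 (SD, n = 4) to 5.96 ± 0.37 (SD, n = 4). Ctr1C, known from the male germ line, fell by 1.73 (SE 0.37, adjusted p = 0.0219), from 5.31 ± 0.64 (SD, n = 4) to 3.58 ± 0.39 (SD, n = 4). Leaving out any 1 fly other than normoxic *dmDys* replicate 8 ended the call of Ctr1B, and leaving out normoxic *dmDys* replicate 6, or replicate 5 or 7 of CH-*dmDys*, ended that of Ctr1C (adjusted p up to 0.088).

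Among 17 zinc transporters 1 was higher and 0 were lower: Zip71B, an importer, rose from 2.21 ± 0.11 (SD, n = 4), near the lowest value of the arrays, to 4.89 ± 0.70 (SD, n = 4), a log2 difference of 2.68 (adjusted p = 0.005 from limma), and it was not called with values below 4 raised to 4. Of 11 genes of iron storage and transport 1 was higher and 1 lower. IRP-1B, an iron regulatory protein of the aconitase family, rose by 1.78 log2 units (SE 0.21, adjusted p = 0.0038), and fh, the frataxin gene for the assembly of iron-sulphur clusters, fell by 1.14 (SE 0.07, adjusted p = 5.34e-04).

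In the list of MTF-1 and the glutathione route, 0 of 5 genes were called higher and 1 lower. Gclm, the modifier subunit of the enzyme that starts glutathione synthesis, fell in *dmDys* flies by 3.93 log2 units (SE 0.42, adjusted p = 0.0029), from 8.12 ± 0.86 (SD, n = 4) to 4.19 ± 0.06 (SD, n = 4). In WT flies its difference was 1.67 (SE 0.73, adjusted p = 0.9996), and the difference between the responses, -5.60 (SE 0.85, adjusted p = 0.0061), was called. The signs of Gclm were thus those of MtnC. With the 3' minus 5' difference as a covariate, when 29 probe sets were called in all, the log2 difference in *dmDys* flies was -3.18 for Gclm, -2.38 for Ctr1C, 2.51 for Zip71B, -0.99 for fh, 0.90 for IRP-1B and -0.51 for Ctr1B, and none of the 6 was called. For the difference between the responses Gclm was then at -5.96 and was not called. Between the genotypes in normoxia the copper chaperone gene CCS and the zinc transporter genes Zip71B and ZnT86D were lower in *dmDys* flies, by log2 differences of -2.69, -2.75 and -1.18 (adjusted p = 0.0091, 0.0071 and 0.0394 from limma), against 4.84% of all probe sets called lower, and the call of ZnT86D was lost without any 1 fly. On the deposited values the log2 means of ZnT86D were 9.28 in normoxic *dmDys* and 9.34 in normoxic WT flies, so its lower level depends on the quantile normalization. The calls of CCS and Zip71B were lost with values below 4 raised to 4.

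**Figure D4:**
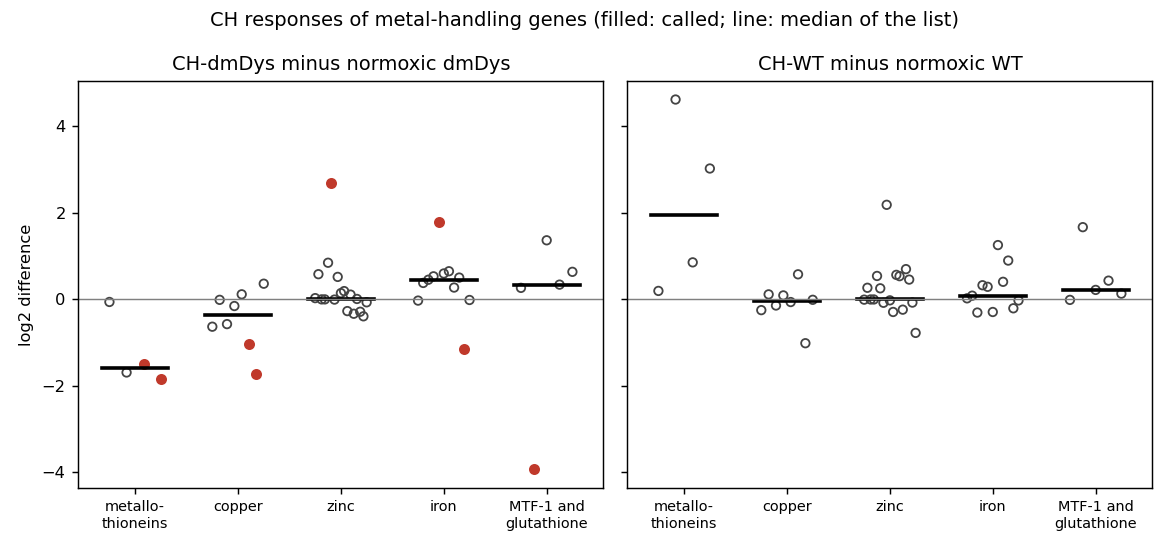
Log2 difference with CH (vertical axis) of single genes of the metallothionein, copper, zinc, iron and MTF-1 and glutathione lists in *dmDys* flies (left) and WT flies (right), each circle 1 gene, filled where called, with a line at the median of the list. The metallothionein median is -1.59 in *dmDys* and 1.94 in WT flies, and no gene is filled in WT flies.

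Markers of cell types in which metals are handled were measured beside these results. In *dmDys* flies with CH, 9.53% of all probe sets were called and 5.46% were called higher, the shares against which the marker counts stand. There 0 of 5 markers of midgut enterocytes were called. Their summed intensity ranged from 17387 to 62665 in CH-*dmDys* and from 23979 to 40069 in normoxic *dmDys* flies. Within their groups, the enterocyte sum was highest in CH-*dmDys* replicate 8 (62665, next 40530) and CH-WT replicate 6 (25072, next 19449). The same held for normoxic WT replicate 5 (48161, next 8252). These flies also had the highest summed metallothionein intensity of their groups. Normoxic *dmDys* flies went the other way: replicate 8 had the highest enterocyte sum (40069, next 29348) and the lowest metallothionein sum (64904). CH-*dmDys* replicate 6, with the next enterocyte sum of its group, was lowest in MtnB and MtnD. Apart from CH-WT replicate 6 and normoxic WT replicate 5, the enterocyte sum of WT flies lay between 14210 and 19449 with CH and between 4140 and 8252 without. Of 2 measured markers of the copper cells of the midgut, the cells that take their name from copper feeding, Vha100-4 was called higher (log2 difference 2.55) and dve was not called (-0.74). Of 3 markers of the Malpighian tubules, the excretory organs, 2 (Irk3 and Oatp58Dc) were called higher, and their sum ranged from 3293 to 4604 with CH and from 1063 to 1662 without. Of 4 fat body markers 1 (Lsp2) and of 4 blood cell markers 1 (NimC1) were called higher. The log2 means of Lsp2 (2.09 to 3.81), Vha100-4 (2.09 to 4.64) and NimC1 (2.13 to 8.58) rose from near the lowest value of the arrays. Lsp2 stayed low with CH. The 5 genes of eggs and yolk had a median log2 level of 2.085 in every *dmDys* fly, near the lowest value of the arrays. In WT flies 0 markers were called with CH, where 0% of all probe sets were called. The fat body markers Fbp1 and Lsp2 had log2 differences of 5.71 and 5.15 there (limma, unadjusted p = 0.0223 and 0.023), larger than that of MtnB, with a summed intensity of the 4 fat body markers from 11301 to 37652 with CH and from 10486 to 13876 without. Among the 5 enterocyte markers Mal-A1 had a log2 difference of 2.38 in WT flies (limma, unadjusted p = 0.0627) and LManVI of 0.84. Jon25Bi (-1.91), lambdaTry (-0.81) and betaTry (-0.19) went the other way, and the median of the list was -0.19. The part of these cell types in the metallothionein levels was not tested.

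The genes beside the metallothioneins on the chromosome were also measured. Of the 8 nearest measured protein-coding neighbours, 0 were called by limma in CH-*dmDys* against normoxic *dmDys* flies, in the same comparison of WT flies or for the difference between the responses. In *dmDys* flies the share called among all probe sets was 9.53%, and 4 of the 8 neighbours (CG12947, Or92a, Ir92a and Gfrl) lay near the lowest value of the arrays in both groups, so that the count says little. The neighbour with the smallest adjusted p was Stat92E, beside MtnD, the transcription factor of the JAK-STAT pathway, with a log2 difference of 0.58 in *dmDys* flies (adjusted p = 0.0039), below the 2-fold threshold.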

How the data were processed

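RNA of 16 single whole flies, 4 per group, was amplified and hybridized by the authors to Affymetrix Drosophila Genome 2.0 arrays. The authors obtained the deposited values, linear intensity of each fly, with GCRMA and GeneSpring GX. The lowest values and quartiles differ between the *dmDys* and the WT arrays, and whether they were normalized separately is not given in the sources used here. Groups were taken from the sample titles. Other labels conflict with them: the strain of CH-WT replicate 3 is given as *dmDys*, that of CH-*dmDys* replicate 5 is missing, the number of another CH-WT fly differs between fields, and CH stands in the source name of each normoxic *dmDys* fly.

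Values were turned to log2 with no offset, and 45 hybridization controls were removed from the 18952 probe sets, which left 18907 to test. A symbol of 1 gene was given for 13646, several for 402 and none for 4904. Each comparison within a genotype used its own 8 arrays (limma 3.58.1, R 4.3.3), the difference between the CH responses all 16, and the genotypes in normoxia 8 arrays after quantile normalization over all 16. Calls needed p under 0.05 after Benjamini-Hochberg adjustment over all probe sets, and at least 1 unit of log2 difference. Single genes were also compared with two-sided exact permutation tests. SAM, which the methods name, was written anew, with every split of the 8 flies. The tests were checked on simulated arrays. Flies are separate animals, and nothing says whether they came from separate crosses. Precision is limited by the number of arrays.

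All 4 metallothioneins are given, with the called genes of each list of other metal genes (up to 4 per list), MTF-1, Dys, and the 5 genes with the highest Pearson correlation with each metallothionein. The brightest probe set stood for a gene. The metallothioneins and the lists were chosen with earlier results of these data known. Of the listed genes, Sod1, Gss1, Gss2, lab, Amy-p and Uro had no probe set of 1 gene in the table used. The RefSeq table of Release 6 plus ISO1 MT was used for names and for the order of genes only. Stat92E was named after its values were seen, as were the called markers of cell types. The alternatives were other normalizations, array weights, trend, a floor, brighter probe sets only, no fold threshold, 1 fit over all groups, SAM, the 3' minus 5' difference as a covariate, a replicate block, and leaving out each fly, or CH-WT replicate 7 with normoxic WT replicate 5. The block for the difference between the responses was added after the data were seen.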

Additional observations from a re-analysis of the deposited data

Results flagged for a closer look

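MtnB in CH-WT replicate 6 stood apart from the other CH-WT flies. Its log2 level was 12.76, against 9.65 to 9.98 in the other 3, and the gap to the nearest fly was 0.894 of the range of the group, above Dixon's critical value for 4 samples. This was 1 of 16 groups examined, and chance gives such a value in about 1 of 20 groups. Without this fly the log2 difference of MtnB between CH-WT and normoxic WT flies was 3.90 (limma, adjusted p = 0.943), against 4.62 with it.

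The CH response of MtnC differed between the genotypes by -2.35 on the log2 scale, from the interaction term of limma (adjusted p = 0.0317). MtnC was lower in 4 of 4 CH-*dmDys* flies than in every normoxic *dmDys* fly and above every normoxic WT fly in 3 of 4 CH-WT flies. The kind of CH differed with the genotype and cannot be told apart from it.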

How the results depend on the processing

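Of 328 alternative values of single metallothioneins, 276 kept their direction and their side of the threshold, 43 were no longer called, 8 were newly called and 1 changed sign: the CH difference of MtnA in *dmDys* flies was 0.0445 with the 3' minus 5' difference as a covariate. Only results called in the main fits could lose a call. In *dmDys* flies with CH the call was lost in 8 of 19 alternatives for MtnC and in 10 of 19 for MtnD. For MtnC it was also lost in 15 of 26 alternatives for the difference between the CH responses and in 10 of 17 between the genotypes in normoxia. In CH-*dmDys* against normoxic *dmDys* flies, where 2 metallothioneins and 1801 probe sets were called, 1 metallothionein was called in 1 fit over all 4 groups (912 probe sets), and 0 with SAM (467), with the covariate (29) and with the replicate block (12). Without a fold threshold 3819 probe sets were called. Leaving out each fly in turn gave 0 to 3. In CH-WT against normoxic WT flies 0 were called under each of the 20 alternatives. For the difference between the CH responses, where 1 metallothionein and 169 probe sets were called, 0 were called with arrays centred (95), array weights (54), the covariate (56) and the replicate block (26), 2 when replicate 7 of CH-WT and replicate 5 of normoxic WT were left out together (698), and 0 to 1 with each fly left out. With quantile normalization 102 probe sets were called. Between normoxic *dmDys* and normoxic WT flies, where 1 metallothionein and 1526 probe sets were called, 2 were called on the deposited values (3504), in 1 fit (1931), with array weights (2807), without a fold threshold (3413) and without replicate 5 of normoxic WT (2742), 0 with arrays centred (1862), a floor (947) or brighter probe sets only (1486), and 0 to 2 with each fly left out. The causes were not tested. Flies shared numbers only in part, and their deviations did not regularly go together by number. Correlations of the same number were -0.19, -0.03 and 0.11 in *dmDys*, and 0.67, -0.88 and 0.61 in WT flies. The highest with another number were 0.14, 0.15 and 0.03 in *dmDys*, and 0.59, 0.86 and 0.80 in WT flies. The numbers are thus not shown to pair the flies. With the block MtnC had a log2 difference of -1.28 (adjusted p = 0.297) and MtnD of -1.81 (adjusted p = 0.313) in *dmDys* flies. The genotypes in normoxia allow no block. Whether signal near the top of the scale limits MtnA was not tested.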
